A study of Rattus norvegicus with 2 samples.

Results

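The stathmins Stmn1, Stmn2, Stmn3 and Stmn4 were followed through the tag profiles of cultured rat cortical neurons with and without RNAi of PIWIL1, a Piwi protein of the Argonaute family. The members were chosen by name, from RefSeq identifiers matched to rat symbols and, for Stmn3, from the gene description in the deposited tables, and they are 4 of the 9894 genes listed in either library. The neurons came from the cortex of E16 Sprague-Dawley rats. Both groups were dissociated, nucleofected with a plasmid, and kept for 48 h in Neurobasal medium with serum and B27. One group received a control plasmid, called Scramble in the study, and the other an RNAi plasmid against PIWIL1, and which of the study's siRNAs it carried is not given in the sources used here. Each group is 1 library of total RNA, the control library and the RNAi library. No sorting of transfected cells is described, so a library may hold transfected and untransfected cells of a whole cortical culture. In such bulk RNA, fewer cells of a type and less RNA per cell cannot be told apart.

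Stathmins are small phosphoproteins that bind tubulin dimers and keep them from polymerizing, or promote the shrinkage of microtubules. Stathmin itself, the product of Stmn1, is cytosolic and is found in dividing progenitors as well as in neurons. SCG10 (Stmn2), SCLIP (Stmn3) and RB3 (Stmn4) carry an added N-terminal region that is palmitoylated and anchors them to Golgi and vesicle membranes, and they are mainly neuronal. Phosphorylation lowers the affinity of stathmins for tubulin. SCG10 is abundant in the growth cones of developing axons and is used as a marker of axon growth.

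In these libraries a transcript is read as a tag of 21 bases that begins with the CATG at which the cDNA was cut. Sites are numbered as in the deposited tables, with site 1 nearest the 3′ end of the transcript. A gene can be read at several sites, and the sequence of each tag decides which gene its copies are given to. The tags below carry most of the copies of the 4 genes, together with those Stmn2 tags that differed most between the libraries. The capitals mark the CATG.
Stmn1 site 1: CATGaaaaagaagtgctccag
Stmn1 site 3: CATGgcatcttctgatattca
Stmn2 site 1: CATGatgctactaaatatttt
Stmn2 site 3: CATGtcgatggcttatctgtg
Stmn2 site 6: CATGtgaacctccacatttct
Stmn2 site 9: CATGgtttaaaaagaactcat
Stmn2 site 10: CATGcgatatcagtatgggaa
Stmn3 site 1: CATGagcgggaggtgctgcac
Stmn3 site 2: CATGgccagcaccgtatctgc
Stmn4 site 1: CATGtaaaagattgaccagtg
Stmn4 site 3: CATGagcgtgaggtaatccag
Stmn4 site 4: CATGaccctcgcagcctataa
Tags of different stathmins differed at several positions. Among the 134 pairs of site tags from different members, the median pair had 8 of 21 bases in common, the CATG included, and the closest pair differed at 5 positions. That pair was site 1 of Stmn3 and site 3 of Stmn4, which share 16 of 21 bases and the pattern CATGagcg at their start. Site 1 of Stmn1 shared 14 bases with each of those 2 tags. No tag was listed under more than 1 gene.

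The control library held 1947600 copies on genes and the RNAi library 1865913, which were 57.5% and 56.5% of all clean tags. A gene with 3 copies stood at 0.886 TPM in the former and 0.908 TPM in the latter, where TPM is the copies of a gene scaled to all clean tags of its library and not divided by transcript length. With 1 library per group there was no replicate check. Fisher's exact test, adjusted after Benjamini and Hochberg (FDR), compared the libraries, not the conditions. The intervals are exact at 95% and, with 1 library per group, cover counting error only. Test and intervals treat copies as independent molecules, which amplified copies are not, so the intervals can be too narrow. Calls needed an FDR of at most 0.05 and a log2 ratio of TPM of at least 0.58 in size, thresholds that 8.93% of all genes passed. PIWIL1 itself was not analysed here, and the knockdown was not checked.

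All 4 stathmins were listed in both libraries, at levels that spanned from the most copied genes of the culture to a moderate one. Stmn2 (NM_053440) had 7484 control and 5678 RNAi copies, or 2209.7 TPM (95% confidence interval 2160 to 2260) and 1719 TPM (1674 to 1764). Stmn1 (NM_017166) had 3725 and 3257 copies, or 1099.8 TPM (1065 to 1136) and 986 TPM (952 to 1020). Stmn3 (NM_024346) had 1408 and 1433 copies, or 416 TPM (394 to 438) and 434 TPM (412 to 457). Stmn4 (NM_019176) had 158 and 173 copies, or 46.65 TPM (39.7 to 54.5) and 52.4 TPM (44.9 to 60.8). The order Stmn2, Stmn1, Stmn3, Stmn4 was the same in both libraries, and no interval of one gene reached that of its neighbour in the order. By copies, Stmn2 ranked 20th of all genes in the control library and 28th in the RNAi library. Stmn1 ranked 58th and 69th. Stmn3 stood at place 217 and place 206, and Stmn4 at place 2309 and place 2012. The level of a tag depends on which CATG sites a transcript offers and how well each is recovered, so the order describes tag copies and not molecules of mRNA.

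**Figure D1:**
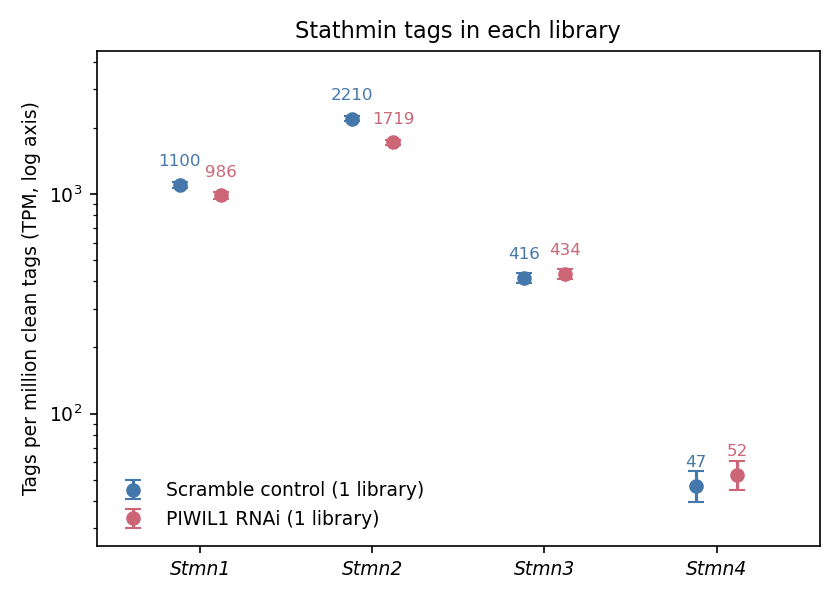
Levels of the 4 stathmins in TPM (copies scaled to clean tags, log axis) in the control library (left point of each pair) and the RNAi library (right point), with exact 95% intervals for counting error. The intervals of Stmn1 and of Stmn2 do not overlap between the libraries, and those of Stmn3 and of Stmn4 do.

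None of the 4 stathmin genes passed both thresholds between the libraries, and their log2 ratios went in different directions. With copies corrected for the bases at the tag ends, described further on, Stmn4 alone passed both, at 0.59 against the threshold of 0.58. After that correction 555 of all 9894 genes passed both. Stmn1 then stood at -0.38, Stmn2 at -0.21 and Stmn3 at -0.045. As deposited, the ratio of the RNAi to the control library was 0.778 for Stmn2, a log2 ratio of -0.36 (95% interval -0.41 to -0.31, FDR 3.06e-38 in Fisher's exact test). It was 0.896 for Stmn1, a log2 ratio of -0.16 (-0.23 to -0.09, FDR 0.00164 in Fisher's exact test). Both were lower at the FDR alone, as 9.53% of all genes were (16.7% passed in either direction). Both fell short of the ratio threshold, which 35.5% of all genes passed in either direction. These shares are over genes of all copy numbers, most with far fewer copies than Stmn1 and Stmn2. For Stmn3 the ratio was 1.04, a log2 ratio of 0.06 (-0.05 to 0.17, FDR 0.319 in Fisher's exact test). For Stmn4 it was 1.12, a log2 ratio of 0.17 (-0.15 to 0.49, FDR 0.490 in Fisher's exact test). The intervals of Stmn3 and Stmn4 include 0. At an unadjusted p under 0.05 the count was also 2 of 4, with no share of all genes at hand to set beside it. When edgeR's exact test was given an assumed biological coefficient of variation of 0.1, neither Stmn1 (FDR 0.857) nor Stmn2 (FDR 0.531) passed.

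The side of the FDR on which Stmn1 and Stmn3 fell depended on what the libraries are scaled to. Over the 8899 genes with copies in both, the median log2 ratio was -0.085 (quartiles -0.44 and 0.23), and 56.6% of them were lower in the RNAi library. Among the 733 genes with at least 1000 copies, the range in which Stmn1, Stmn2 and Stmn3 fall, the median was 0.012 (quartiles -0.24 and 0.23). The value of Stmn2 lay below the lower quartile of those abundant genes, and the values of Stmn1 and Stmn3 lay between the quartiles. Scaling by TMM factors raised every log2 ratio by 0.0945 and scaling by DESeq2's size factors by 0.085. With TMM factors Stmn1 stood at -0.06 (FDR 0.230 by an exact binomial test), Stmn3 at 0.16 (FDR 0.0281 by the same exact test) and Stmn2 at -0.27, and Stmn4 stayed above 0, so that none of the 4 changed sign. With the size factors Stmn1 had an FDR of 0.151 and Stmn3 of 0.0427 by the exact binomial test.

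**Figure D2:**
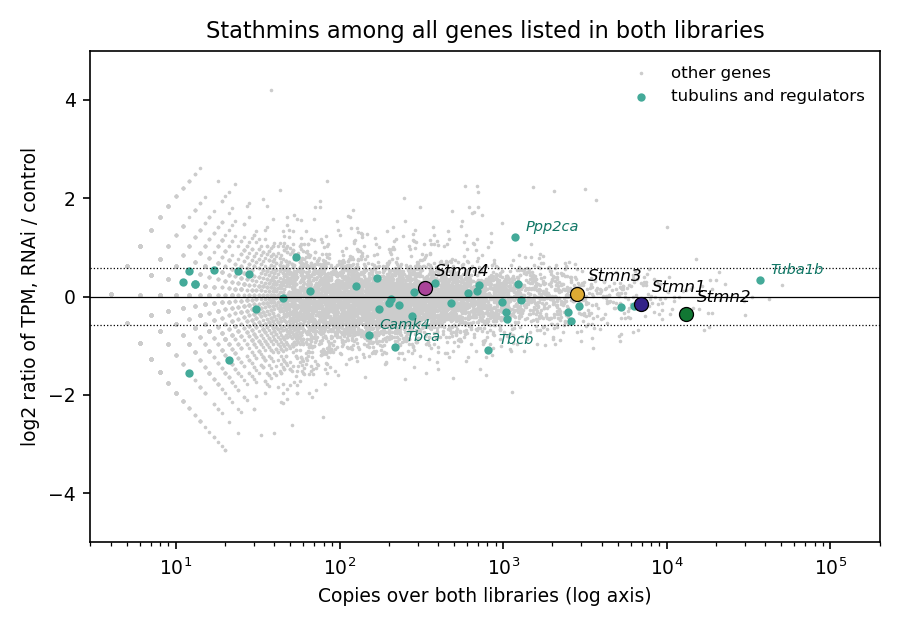
Log2 ratio of TPM (RNAi over control) against copies over both libraries (log axis) for each gene listed in both, with the stathmins as large circles and the tubulins and regulators in teal, and dotted lines at the ratio threshold of 0.58. All 4 stathmins lie between the dotted lines, Stmn2 lowest at -0.36, while Ppp2ca lies above and Tbcb, Tbca and Camk4 lie below.

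Compared with each other as deposited, some pairs of stathmins differed in log2 ratio by more than counting error. The log2 ratio of Stmn2 was lower than that of Stmn1 by a difference of 0.20 (95% interval 0.12 to 0.29), which does not depend on the scaling of the libraries. For Stmn1 minus Stmn3 the difference was -0.22 (-0.35 to -0.09). For Stmn2 minus Stmn3 it was -0.42 (-0.54 to -0.31), and for Stmn2 minus Stmn4 it was -0.53 (-0.85 to -0.21). The intervals of Stmn1 minus Stmn4, at -0.32 (-0.65 to 0.003), and of Stmn3 minus Stmn4, at -0.11 (-0.44 to 0.23), included 0. With the tag ends corrected, Stmn1 minus Stmn2 turned around to -0.16, Stmn1 minus Stmn3 was -0.33 and Stmn2 minus Stmn3 shrank to -0.17, while Stmn4 stood further from the others, at -0.97 for Stmn1, -0.80 for Stmn2 and -0.63 for Stmn3 minus Stmn4. As deposited, 4 of 6 intervals left out 0, without adjustment over the 6 pairs and with counting error as the only error. The summed copies of the family went from 12775 to 10541, a log2 ratio of -0.24 (-0.28 to -0.20). Of these copies Stmn2 held 58.6% in the control library and 53.9% in the RNAi library, Stmn1 29.2% and 30.9%, Stmn3 11% and 13.6%, and Stmn4 1.24% and 1.64%.

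Stmn2 was read at 12 CATG sites, more than any other stathmin, and most of its site tags had a log2 ratio below 0. Of its 11 site tags with at least 20 copies over both libraries, 10 were lower in the RNAi library, where 55.7% of such tags of all genes were lower. The intervals of sites 2, 4, 5, 8 and 10 included 0, and the tags of a gene share its library. Site 10 is counted here by its first-listed tag, at -0.10, without the second form described below. Site 9, the most copied, went from 3397 to 2486 copies, a log2 ratio of -0.41 (95% interval -0.49 to -0.34). Site 1 went from 1828 to 1417 copies, a log2 ratio of -0.33 (-0.43 to -0.23). Both were lower by about as much as the gene as a whole.
Among the less copied sites the spread was much wider. Site 3 fell from 381 to 100 copies, a log2 ratio of -1.89 (-2.23 to -1.57, FDR 3.12e-34 in Fisher's exact test over all tags). Site 6 fell from 241 to 126 copies, a log2 ratio of -0.90 (-1.22 to -0.58, FDR 1.88e-06 in Fisher's exact test). These were the only 2 of the 19 stathmin site tags with at least 20 copies that passed both thresholds (10.5%), against 7.98% of such tags of all genes. Site 4, with 16 and 6 copies, had a log2 ratio of -1.38 (-3.02 to 0.05). Of the 11 site tags of Stmn2, site 7 was the single one above 0, at 152 and 180 copies and a log2 ratio of 0.28 (-0.04 to 0.60). Over all 65 stathmin tags of any copy number, 3 (4.62%) passed both thresholds, against 2.74% of the tags of all genes. The third was a rare form of the site 9 tag with 1 changed base (T21C, counted from 1 at the 5′ end), which was listed only on the RNAi side, with 11 copies.
Site 3 held 5.09% of the copies of Stmn2 in the control library (exact interval 4.60 to 5.61) and 1.76% in the RNAi library (1.44 to 2.14). Without site 3 the log2 ratio of Stmn2 was -0.31 (-0.36 to -0.26). Summed over sites 1 to 8, nearer the 3′ end, it was -0.48 (-0.56 to -0.40), and over sites 9 to 12 it was -0.30 (-0.36 to -0.23). Without site 3, sites 1 to 8 stood at -0.35 (-0.43 to -0.26), an interval that overlaps that of sites 9 to 12.

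**Figure D3:**
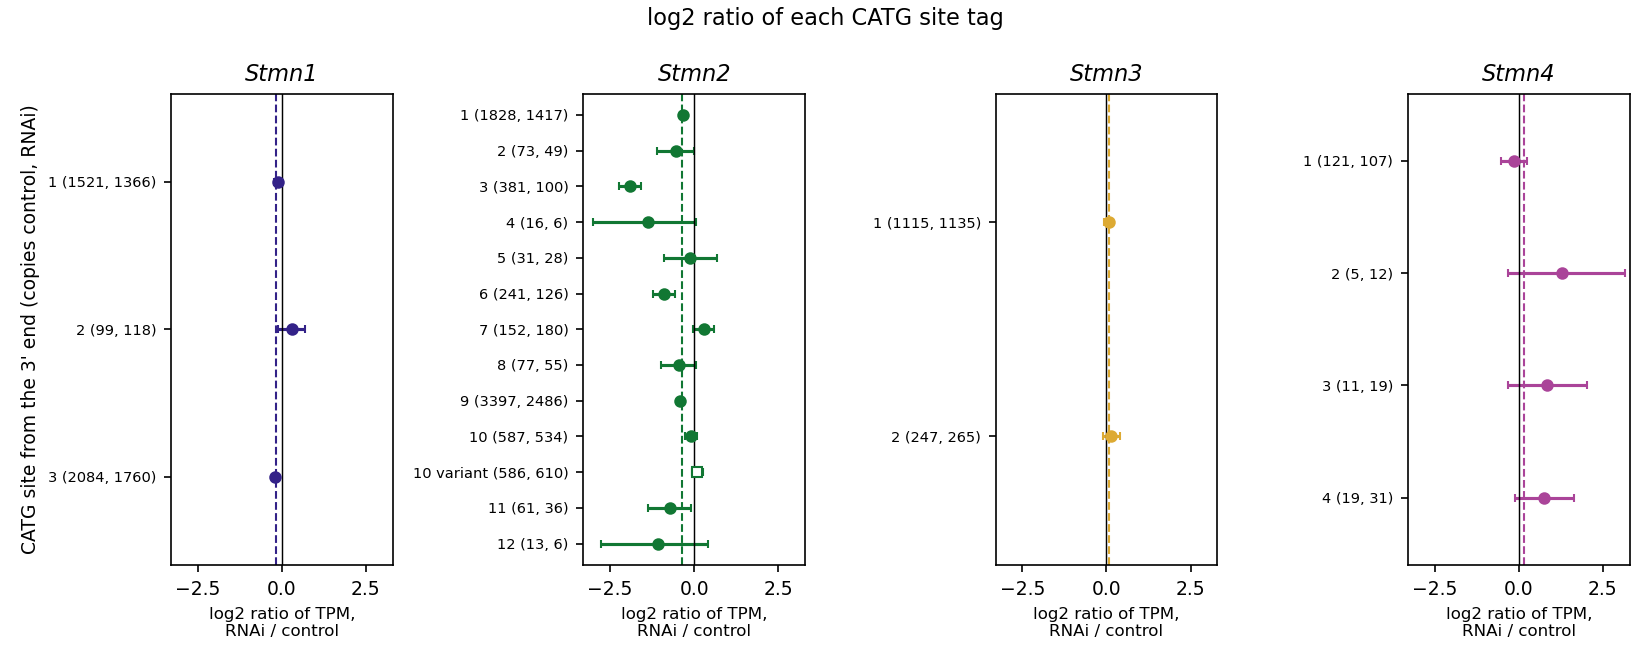
Log2 ratio of copies per clean tag (RNAi over control) for each site tag of the 4 stathmins, by CATG site counted from the 3′ end, with exact 95% intervals and the copies in the control and the RNAi library beside each point. The open square is the second tag of Stmn2 site 10 and the dashed line the ratio of the gene. Sites 3 and 6 of Stmn2 lie far left of the gene's line at -1.89 and -0.90, site 4 at -1.38 has a wide interval that includes 0, and site 7 lies right of 0.

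Site 10 of Stmn2 was read by 2 tags that differ at 1 base, C5T counted from 1 at the 5′ end. Here the capital marks the base that differs from the first-listed tag.
Stmn2 site 10, second tag: catgTgatatcagtatgggaa
The first-listed tag had 587 copies in the control library and 534 in the RNAi library, and the second had 586 and 610. The second tag made up 50% of the copies of the pair in the control library (exact interval 47.1 to 52.9) and 53.3% in the RNAi library (50.4 to 56.2), so both libraries held the forms in nearly equal numbers and the intervals overlap. A second form at this share was uncommon. Of 5441 sites with at least 100 copies in all genes, 110 (2.02%) had a tag with 1 or 2 changed bases that took at least 20% of the copies, and the highest such share at any other stathmin site was 3%. Whether both forms come from Stmn2 was not tested. With every form of its tag counted, the rare G6A and T14A forms included, site 10 had 1175 and 1146 copies, a log2 ratio of 0.00 (95% interval -0.12 to 0.12), and its part of the Stmn2 copies went from 15.7% (14.9 to 16.5) to 20.2% (19.1 to 21.3).

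Stmn1 was read at 3 sites, and 2 of them carried nearly all its copies. Site 3 went from 2084 to 1760 copies, a log2 ratio of -0.21 (95% interval -0.30 to -0.12). Site 1 went from 1521 to 1366 copies, a log2 ratio of -0.12 (-0.23 to -0.01). Both intervals lay below 0, and neither tag reached the ratio threshold. In Fisher's exact test over all tags the FDR was 0.529 for site 1 and 0.0043 for site 3. The intervals are unadjusted and scaled to clean tags, while the FDR is adjusted over 53118 tags and its test is against copies on genes. Site 2, with 99 and 118 copies, had a log2 ratio of 0.29 (-0.11 to 0.69). The shares of the sites were close between the libraries, 41% and 42.2% for site 1 and 56.3% and 54.2% for site 3.

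Stmn3 was read at 2 sites, which stood within counting error of equality between the libraries. Site 1 had 1115 and 1135 copies, a log2 ratio of 0.06 (95% interval -0.06 to 0.18). Site 2 had 247 and 265 copies, a log2 ratio of 0.14 (-0.12 to 0.39). Site 1 took 82.2% of the copies of Stmn3 in the control library and 81.4% in the RNAi library.

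Stmn4 was read at 4 sites that pointed in different directions. Site 1 had 121 and 107 copies, a log2 ratio of -0.14 (95% interval -0.53 to 0.25). Site 2 had 5 and 12 copies, site 3 had 11 and 19, and site 4 had 19 and 31, each more in the RNAi library with an interval that includes 0. Together, sites 2 to 4 had 35 and 62 copies, a log2 ratio of 0.86 (0.24 to 1.502), a sum formed after the values were seen. The share of site 1 was 77.8% of the copies in the control library (exact interval 70.6 to 84.1) and 64.2% in the RNAi library (56.5 to 71.3), and these intervals overlap slightly. With the tag ends corrected, sites 1, 3 and 4 were all above 0, at log2 ratios of 0.53, 0.62 and 0.57, none of them past the thresholds.

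The site nearest the 3′ end held less of Stmn1 and of Stmn2 than of the median gene. Over the 3304 genes with at least 100 copies in the control library, site 1 held a median of 63.3% of a gene's copies (quartiles 37.4 and 82.2), and over 3103 genes of the RNAi library 66.4% (38.5 and 85.2). Stmn3, at 82.2% and 81.4%, stood high in that range. In Stmn2 site 1 held 24.5% and 25%, below the lower quartile in both libraries, and site 9 held 45.8% and 44.5%.

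**Figure D4:**
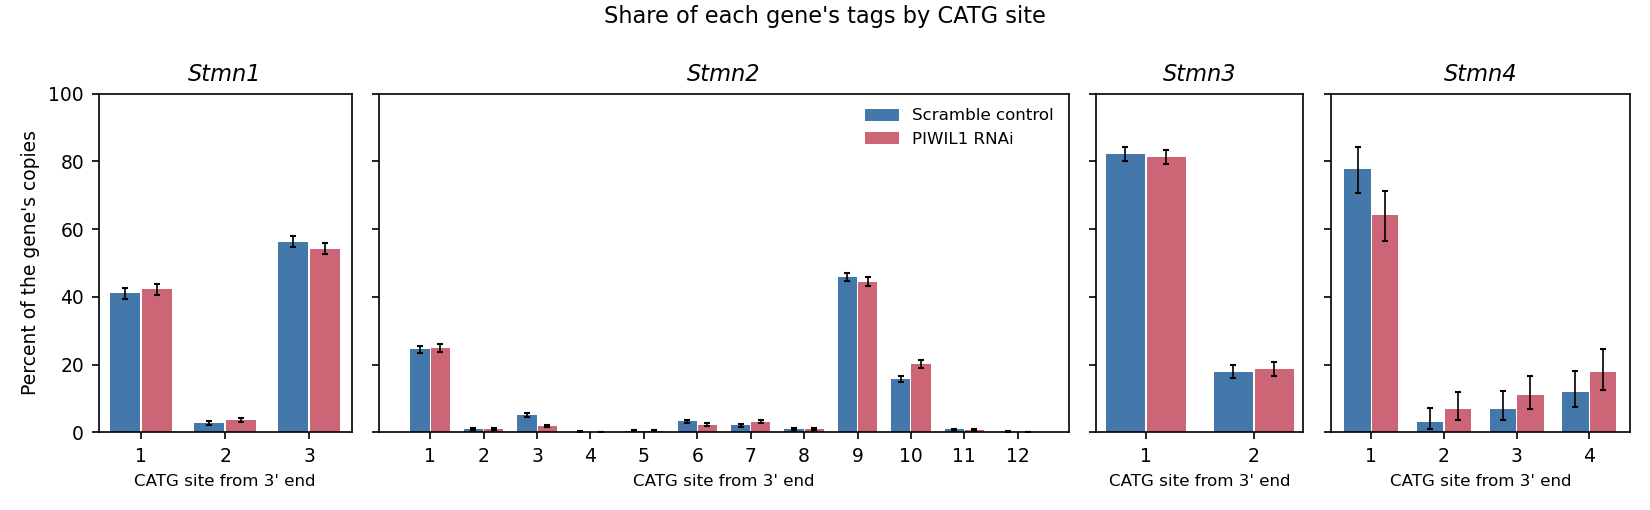
Share of each stathmin's copies (percent) at each CATG site, counted from the 3′ end, in the control and the RNAi library, with substituted forms of a tag counted at its site. Sites 9 and 1 make up most of Stmn2 in both libraries, and the share of its site 3 is 5.09% and 1.76%.

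Tag ratios in these libraries moved with the last bases of the tag, and several stathmin tags end in bases at the extremes. Stmn2 site 3 and Stmn4 site 1 end in TG, the ending with the lowest median log2 ratio over all genes (-0.67, quartiles -1.30 and -0.02). Stmn2 site 9 ends in AT (median -0.39, quartiles -0.73 and -0.12), site 6 in CT (-0.24) and site 1 in TT (-0.21). The main tags of Stmn1 end in CA (0.16) and AG (0.11), above 0. So Stmn2 site 3, at -1.89, lay below the lower quartile of its ending, Stmn2 site 9 lay within the quartiles of its own, and the tags of Stmn1 at sites 1 and 3 lay below the medians of theirs.
The median of each ending, minus the median over all tags, was taken out of the copies, so a shift shared by all tags stays in. The log2 ratio of Stmn1 was then -0.38 (FDR 1.88e-20 in Fisher's exact test), that of Stmn2 -0.21 (FDR 2.95e-10 in Fisher's exact test) and that of Stmn3 -0.045. Stmn4 stood at 0.59 (FDR 0.00172 in Fisher's exact test) and passed both thresholds, on a site 1 tag that ends in TG and whose own corrected value, 0.53, did not pass (Fisher's exact test, FDR 0.116). The order of Stmn1 and Stmn2 was thus turned around. Stmn2 site 3 (-1.22) and site 6 (-0.74) passed both thresholds after the correction as well. The FDR after correction leaves out the spread of tags around the median of their ending, and what part the ending has in each stathmin value was not tested further.

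**Figure D5:**
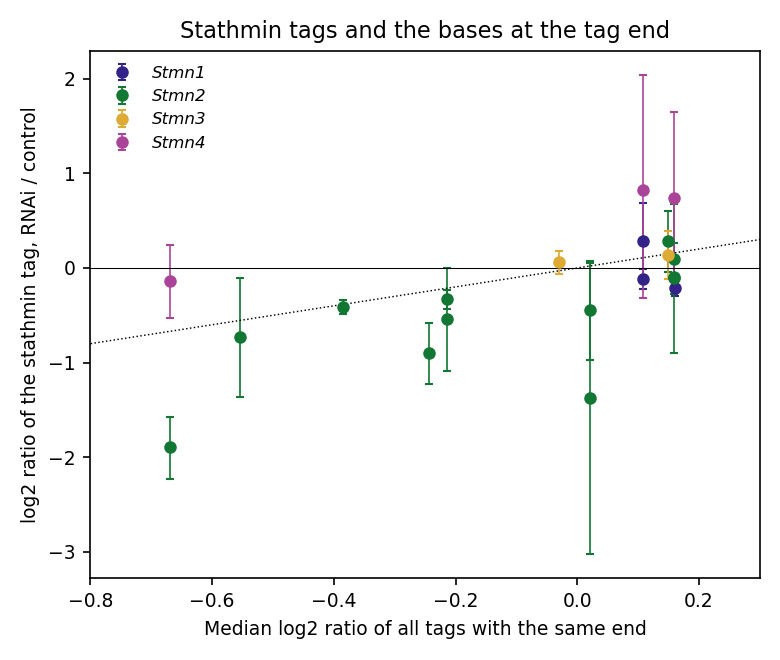
Log2 ratio of each stathmin site tag with at least 20 copies, and of the second tag of Stmn2 site 10, against the median log2 ratio of all tags with the same ending, with a dotted line where both are equal. The Stmn1 tags at sites 1 and 3 lie below the line with endings above 0, and Stmn2 site 3 lies at -1.89 against -0.67. Stmn2 site 4, with 16 and 6 copies, lies at -1.38 against 0.02.

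Of a list of 52 genes for the tubulins that stathmins bind and for proteins that act on stathmins or beside them, 41 were listed. Of these, 1 (2.44%) rose and 3 (7.32%) fell past both thresholds, against 2.96% and 5.97% of all genes, and the median log2 ratio was -0.05, against -0.085 over all genes. The shares were near those of all genes.
None of the 11 listed tubulins passed both thresholds, and their median log2 ratio was -0.12. Tuba1b, the most copied of them, went from 16568 to 20469 copies, a log2 ratio of 0.34 (95% interval 0.31 to 0.37, FDR 7.51e-130 in Fisher's exact test). At the FDR alone 5 were lower, a criterion that 9.53% of all genes met in that direction, among them the neuronal beta-tubulin Tubb3, from 1538 to 1068 copies, a log2 ratio of -0.49. That share is over genes of all copy numbers. With many copies a small ratio passes, as that of Tubb5 did at -0.18 (3390 and 2914 copies).
Tubulin cofactors help to fold and to take apart tubulin dimers, and 2 of the 4 listed fell. Tbcb went from 556 to 254 copies, a log2 ratio of -1.09 (FDR 3.95e-22 in Fisher's exact test), with all 3 of its site tags of at least 20 copies lower. Tbca went from 148 to 71 copies, a log2 ratio of -1.02 (FDR 1.78e-05 in Fisher's exact test), all on 1 tag. Both also passed with the tag ends corrected.
Of 12 listed kinases known to phosphorylate stathmins, 1 fell. Camk4, a calcium-dependent kinase of neurons, went from 97 to 55 copies, a log2 ratio of -0.78 (FDR 0.0156 in Fisher's exact test), mostly on a tag that ends in AT, and with the tag ends corrected its log2 ratio was -0.49 (Fisher's exact test, FDR 0.244). Mapk3 (ERK1), the most copied kinase over both libraries, had 574 and 664 copies, a log2 ratio of 0.25.
Of the 4 phosphatases, Ppp2ca, a catalytic subunit of PP2A, rose from 364 to 821 copies, a log2 ratio of 1.21 (FDR 4.54e-43 in Fisher's exact test). The rise lay on its site 1 tag, which went from 76 to 571 copies, a log2 ratio of 2.95. Its other tags together had 288 and 250 copies, a log2 ratio of -0.17 (-0.42 to 0.08). With the tag ends corrected the log2 ratio of the gene was 1.14. The most copied phosphatase, Ppp1ca, had 1393 and 1088 copies, a log2 ratio of -0.32, short of the ratio threshold.
None of the 3 listed palmitoyl transferases, which anchor the membrane-bound stathmins, passed both thresholds, and Zdhhc7 had 124 and 108 copies. None of the 6 other destabilizing or severing proteins passed, and Spast (spastin) had 299 and 306. Tardbp encodes TDP-43, which binds the Stmn2 transcript and keeps its splicing correct in human neurons, and it had 516 and 464 copies, a log2 ratio of -0.12.

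Some markers of neurons were lower beside Stmn2. All 11 neuronal markers were listed, with summed levels of 2463 TPM in the control library and 2394 TPM in the RNAi library. Their median log2 ratio was -0.40, and 3 (27.3%) were called lower, against 5.97% of all genes, a share over genes of all copy numbers. The list was chosen with earlier results of these data known and holds Map2, which the paper reports as lower, so its share is no independent support. The 3 called were Snap25 (-0.72, 918 and 545 copies), Bcl11b (-1.37, 45 and 17 copies) and Map2 (-1.55, 24 and 8 copies). Map2 had an FDR of 0.0461 in Fisher's exact test and no site tag with at least 20 copies. With the tag ends corrected Snap25 (-0.57) and Bcl11b (-0.82) were no longer called, and Map2 (-1.61, FDR 0.0434 in Fisher's exact test) was. Dcx (0.07), Tbr1 (0.02) and Rbfox3 (0.04, 8 and 8 copies) lay near 0, and Syp (0.27) lay above it. The sum includes Gap43 with 2670 and 3541 copies, a log2 ratio of 0.44, of which 74.4% were on tags that end in runs of at least 8 A. Tags with such runs had a median log2 ratio from 0.90 (8 A) to 1.91 (13 or more A). With the tag ends corrected, Gap43 stood at -0.47 and the neuronal sums were 2708 and 2119 TPM.
Progenitors also express Stmn1. Of their 8 markers 6 were listed, with sums of 984 and 1278 TPM that were mostly Vim, which had 2674 and 3724 copies, while Eomes and Mki67 were not listed. The other 5, Sox2 (-0.26), Nes (-0.50), Hes1 (-0.81), Hes5 (-0.52) and Pax6 (-0.25), all had log2 ratios below 0, and the median of the 6 was -0.38. None of the 6 was called. Mesenchymal genes summed to 546 and 523 TPM with all 5 listed, astrocyte genes to 88.6 and 80.5 TPM with 4 of 6 listed, interneuron genes to 41.6 and 49.6 TPM with all 5 listed, and oligodendrocyte genes to 7.98 and 6.96 TPM with all 6 listed. Of 4 endothelial genes only Flt1 was listed, with 2 copies. Microglial genes summed to 834 and 2207 TPM with 3 of 5 listed. Nearly all of this was Cd68, with 99.3% of its copies on tags that end in at least 8 A, and the defining markers Cx3cr1 and Itgam were not listed. With the tag ends corrected, Cd68 went from a log2 ratio of 1.42 to -0.27 and the microglial sums were 1484 and 1237 TPM. Aif1, with 19 and 30 copies, was then called higher (1.21), and Csf1r stood at -0.41. What part the makeup of the cultures has in the values of Stmn1 and Stmn2 was not tested.

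The genes nearest to each stathmin in log2 TPM over the 2 libraries were Atp5f1a (distance 0.059) and Mpped1 (0.076) for Stmn1, and Hnrnpu (0.0093) and Fbl (0.014) for Stmn3. Those of Stmn4 were Ep400 (0.020) and Vmp1 (0.026). Stmn2 had no close neighbour at its level, and the nearest were Fabp5 (0.23) and Rtn1 (0.33). With 2 libraries such likeness means only that the levels were alike in both.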

How the data were processed

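The authors deposited for each gene the count of its tags, which is the sum of the copies of all its tags and is not normalized, and the TPM, here the copies relative to the clean tags sequenced and not to length. The deposited tables also give every tag with its copies and its CATG site, and no tag with fewer than 2 copies. The submitters' processing notes name the build rn4. The program that matched tags to genes is not given in the sources used here.

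The members and all gene lists were chosen with earlier results of these data known. Symbols came from a RefSeq table by accession for 9337 of 9894 genes (94.4%) and from the description for 2, and since that table is of another build no coordinates are given. A tag with 1 or 2 changed bases listed at a site was counted as a form of the first-listed tag of that site.

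Each gene was tested with Fisher's exact test, two-sided, on its copies against all other copies on genes, with Benjamini-Hochberg adjustment over 9894 genes, and each tag likewise over 53118 tags. Log2 ratios were taken from TPM. Exact (Clopper-Pearson) intervals at 95% cover counting error only. In the correction for the tag end, a class was the last 2 bases of a tag or the length of its run of 3 or more A. The median log2 ratio of the class, minus the median over all tags, was taken out. Both medians were over tags with at least 20 copies, with 0.5 copies added, and were estimated on the other part of the genes. Of the 52 regulators those past both thresholds and the most copied of each group were named, and for each stathmin the 2 nearest genes. Tubb3 and the markers named were chosen after their values were seen. Python 3.11.15, NumPy 2.4.6, pandas 2.3.3, SciPy 1.17.1, Matplotlib 3.10.9 and R 4.3.3 were used, and the R packages were edgeR 4.0.16 and DESeq2 1.42.0.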

Additional observations from a re-analysis of the deposited data

How the results depend on the processing

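Stmn1 and Stmn2 stayed lower under all 15 alternatives, short of both thresholds together in each. Several of these change only the test, the totals it uses, a copy filter or a threshold. They leave the log2 ratios of the stathmins as they were, so the counts out of 15 include settings that could not change a sign. The FDR of Stmn1 was above 0.05 with TMM factors (0.230), size factors (0.151), the most 3′ site only (0.0725) and both assumed coefficients of variation, and that of Stmn2 only with the latter. Stmn3 kept its sign in 14 of 15, with -0.045 after the correction for the tag end. Stmn4 was above 0 in 13 of 15, with 0.59 and a call after that correction, the only stathmin gene called there (1 of 4). It was below 0 when only its most copied tag was used (-0.14) or only the most 3′ site (-0.11), the latter chosen after the data were seen. The number of stathmin tags called was 2 to 3. Over all genes 884 were called, against 284 and 17 with an assumed coefficient of variation of 0.1 and 0.2 in edgeR's exact test, 408 with a log2 threshold of 1, and 555 after the correction. Of the regulator list 4 were called, 0 with a coefficient of variation of 0.2 and 7 by the most copied tag only. The cause of the changes with the tag end and with the choice of tag was not tested, while a larger assumed variation and a higher threshold call fewer genes by construction. No paired analysis was possible because each group had 1 library, and for the same reason no library could be left out. Depth limited Stmn4 most, with 158 and 173 copies.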

Other observations

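The substituted forms of the stathmin tags gathered at 1 position, a pattern chosen after the values were seen and given with no test. Of 44 stathmin tags that differ from the first-listed tag of their site, 9 (20.5%) differ at position 14, counted from 1 at the 5′ end, against 304 of 5945 (5.11%) tags that differ at 1 base over all genes. The form T14G occurred 4 times among the stathmins, with 41 copies in the control library and 26 in the RNAi library, mostly at site 1 of Stmn3 (34 and 20 copies). Of 1424 sites in all genes with T at position 14 and at least 100 copies, 50 (3.51%) had a T14G form, and of the 5 such stathmin sites 3 had one. The sites were not matched for depth, and a form is listed only from 2 copies. Site 1 of Stmn1, with 1521 and 1366 copies, had a T14G form of 2 and 6 copies. Site 2 of Stmn1 had one of 2 copies, in the control library only. The capital marks the changed base in the form with the most copies.
Stmn3 site 1, T14G form: catgagcgggaggGgctgcac
Substituted forms made up 2.80% of all copies in the control library and 3.91% in the RNAi library. For Stmn1 they made up 0.564% and 0.399%, for Stmn3 3.27% and 2.30%, for Stmn4 1.27% and 2.31%, and for Stmn2, with the second tag of site 10, 8.38% and 11.5%.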
